A study of Homo sapiens with 77 samples.

Results

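Farage cells given the menin inhibitor MI-503 were compared with Farage cells given its solvent DMSO, over all 35813 genes of an RNA-seq count table. The comparison rests on 4 libraries, 2 with MI-503 and 2 with DMSO, taken by their column names. They belong to the 16 libraries of an MI-503 experiment in 4 lymphoma lines, among 32 RNA-seq libraries and 77 samples of all kinds in the series. Farage is an established human line of diffuse large B cell lymphoma, which the study lists with wildtype EZH2. Of the lines compared with it below, the study calls KARPAS422 and DB EZH2 mutant. The study's legends, not the sample labels, give 800 nM MI-503 for 3 days. By the labels the 2 groups are told apart by the agent, MI-503 or DMSO, and no other difference is given. The labels do not state whether the 2 libraries of a group stem from separate cultures, so each p-value measures the spread between libraries, which may be technical.

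Menin is a scaffold protein that holds the histone H3 lysine 4 methyltransferases MLL1 and MLL2 (KMT2A and KMT2B) at promoters, and MI-503 occupies the menin pocket that binds MLL1. Glycolysis turns glucose into pyruvate and lactate, and many of its genes are also driven by the hypoxia-inducible factor, a pair of HIF1A or EPAS1 with ARNT. When oxygen is ample, the prolyl hydroxylase EGLN1 marks HIF1A for destruction by VHL. The factor binds DNA at a short core, ACGTG, and its targets cover glucose uptake, lactate export, mitophagy, angiogenesis and feedback on the hydroxylases.

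The largest falls with MI-503 lay in glycolysis and in genes known to respond to low oxygen. Of the 15 largest falls among genes of at least 5 CPM, 10 belonged to the lists of glycolysis enzymes, glucose and lactate transporters, and hypoxia-responsive genes. These 3 lists hold 83 distinct genes, of which 69 had enough counts to be tested, and 56 of the 69 fell while 1 rose at an adjusted p under 0.1. Over all 12659 genes tested, 14.7% fell and 12.3% rose by that rule. With a fold above 1.5 as well, 40 of the 69 fell, or 58%, where 1.48% of all genes tested did so. Those 40 made up 21.4% of the 187 genes that fell by that rule. The lists were chosen with earlier results of these data known, so these counts describe the members and are not independent evidence of their direction.

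Promoters of 7 hypoxia-responsive and glycolysis genes that fell are shown, chosen because the binding core of the hypoxia-inducible factor can be read in them. Each sequence is the 250 bases before a RefSeq transcription start in GRCh38.p14, 5′ to 3′ on the gene's strand. Capitals mark ACGTG or its reverse complement CACGT, and where both overlap they spell CACGTG, the E-box read by MYC, USF and BHLHE40 proteins. PPFIA4 lies at chr1:203026241-203026490 (plus strand), ANKRD37 at chr4:185396591-185396840 (plus strand), BNIP3 at chr10:131981924-131982173 (minus strand), ALDOC at chr17:28576896-28577145 (minus strand), PGK1 at chrX:78103998-78104247 (plus strand), HK2 at chr2:74833877-74834126 (plus strand) and LDHA at chr11:18394313-18394562 (plus strand). RefSeq gives HK2 and LDHA 2 promoters each, of which 1 is shown.
PPFIA4: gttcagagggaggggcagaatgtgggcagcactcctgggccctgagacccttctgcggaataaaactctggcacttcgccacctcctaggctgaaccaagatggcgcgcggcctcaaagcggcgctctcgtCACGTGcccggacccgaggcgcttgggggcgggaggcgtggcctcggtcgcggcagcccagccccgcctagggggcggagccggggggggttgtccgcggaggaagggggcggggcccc
ANKRD37: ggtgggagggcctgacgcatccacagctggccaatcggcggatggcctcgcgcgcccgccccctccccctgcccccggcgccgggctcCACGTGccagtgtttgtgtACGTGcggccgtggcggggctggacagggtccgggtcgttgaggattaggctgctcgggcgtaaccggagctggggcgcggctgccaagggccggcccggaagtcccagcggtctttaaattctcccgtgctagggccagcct
BNIP3: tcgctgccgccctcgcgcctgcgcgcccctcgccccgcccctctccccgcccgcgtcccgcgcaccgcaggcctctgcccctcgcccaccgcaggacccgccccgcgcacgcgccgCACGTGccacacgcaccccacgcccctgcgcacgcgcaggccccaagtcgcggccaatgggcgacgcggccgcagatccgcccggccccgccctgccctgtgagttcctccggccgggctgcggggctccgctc
ALDOC: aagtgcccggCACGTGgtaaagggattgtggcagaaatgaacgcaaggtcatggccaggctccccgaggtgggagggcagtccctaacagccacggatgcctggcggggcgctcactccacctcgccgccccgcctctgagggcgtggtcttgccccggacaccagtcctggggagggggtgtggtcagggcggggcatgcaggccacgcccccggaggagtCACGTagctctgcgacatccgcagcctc
PGK1: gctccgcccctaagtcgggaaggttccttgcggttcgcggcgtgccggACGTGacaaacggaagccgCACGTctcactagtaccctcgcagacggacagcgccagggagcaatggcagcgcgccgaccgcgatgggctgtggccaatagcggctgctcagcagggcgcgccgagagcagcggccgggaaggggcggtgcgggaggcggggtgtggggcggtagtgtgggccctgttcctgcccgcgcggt
HK2: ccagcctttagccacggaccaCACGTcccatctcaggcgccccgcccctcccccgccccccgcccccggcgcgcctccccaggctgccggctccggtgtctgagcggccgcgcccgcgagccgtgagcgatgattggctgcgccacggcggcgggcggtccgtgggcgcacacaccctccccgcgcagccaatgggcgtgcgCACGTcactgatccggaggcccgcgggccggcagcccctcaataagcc
LDHA: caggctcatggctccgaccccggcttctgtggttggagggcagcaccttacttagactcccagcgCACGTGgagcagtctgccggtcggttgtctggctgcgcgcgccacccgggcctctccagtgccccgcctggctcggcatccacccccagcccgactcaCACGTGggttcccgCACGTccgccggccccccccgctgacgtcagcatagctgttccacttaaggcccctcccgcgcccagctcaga
Not all large falls carry the core. Of the 15 largest falls 11 matched a RefSeq promoter, 8 of them with the core in at least 1 promoter, while RXRA, PFKFB4 and GPER1 had none, and SEMA6A, HILPDA, FUT11 and ZNF395 were not matched. Of the sequences shown, LDHA held 5 copies counted on both strands, ANKRD37 and ALDOC held 3 each, and the other 4 held 2 each.

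The core was searched on both strands in 300 bases around each start, 250 before and 50 after. Of the 52 hypoxia-responsive and glycolysis genes that fell, 45 matched a RefSeq promoter, with 75 promoters in all. The core stood in 40 of them, or 53.3%, and CACGTG stood in 16, or 21.3%. The core stood in 21.4% of all 35116 RefSeq promoters, in 25.6% of the promoters of tested genes and in 29.7% of those of the other genes that fell. CACGTG stood in 7.26%, 9.46% and 11.1% of those same sets. The core is part of what many of these genes are known by, and a match is a run of letters, not a measured binding site.

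The steps from glucose to lactate fell nearly throughout. Of 24 enzymes listed, 21 were tested, 17 fell and 1 rose, with a median log2 fold change of -0.80, against 0.007 over all genes tested. Of all genes tested 14.7% fell and 12.3% rose. Of the 17, 14 fell by more than 1.5-fold, and all 14 still did when either MI-503 library was left out. Levels here and below are CPM, the counts of a gene per 1e6 counts of its library after TMM scaling, with no correction for gene length, and so are compared only within a gene.

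HK2, the hexokinase that traps glucose in many tumor cells, had 44.9 and 58.9 CPM in MI-503 cells, against 132 and 140 CPM in DMSO cells. Both MI-503 libraries lay far below both DMSO libraries, and HK2 fell by 1.36 on the log2 scale (SE 0.0956, edgeR's quasi-likelihood test, adjusted p = 2.65e-05). HK1, the more widely used hexokinase, had 142 and 152 CPM in MI-503 cells, against 212 and 213 CPM in DMSO cells, and its smaller fall was 0.53. GPI, which converts glucose 6-phosphate to fructose 6-phosphate, had 308 and 362 CPM in MI-503 cells, against 617 and 609 CPM in DMSO cells. GPI thus fell by 0.87 with no overlap between the groups, which also held for 1864 of all 1866 genes that fell.

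The phosphofructokinases set the pace of the pathway. PFKP fell by 0.56 and PFKL by 0.33, while PFKM had 94.7 and 101 CPM in MI-503 cells, against 92.7 and 97.8 CPM in DMSO cells, which overlap. The PFKFB enzymes make the activator fructose 2,6-bisphosphate. PFKFB4 had 8.97 and 23.2 CPM in MI-503 cells, against 79.6 and 74.0 CPM in DMSO cells, a fall of 2.07 (SE 0.242, edgeR adjusted p = 0.00039), and the MI-503 libraries differed from each other more than for most members. PFKFB3 fell by 0.71. PFKFB2 was the member that rose, with 10.5 and 11.2 CPM in MI-503 cells, against 5.63 and 6.47 CPM in DMSO cells, a log2 change of 0.85 (SE 0.133, edgeR adjusted p = 0.002).

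The aldolases and the triose steps followed. ALDOC had 94.7 and 136 CPM in MI-503 cells, against 326 and 297 CPM in DMSO cells, a fall of 1.40, while the more abundant ALDOA fell by 0.84. TPI1, which interconverts the triose phosphates, had 388 and 484 CPM in MI-503 cells, against 920 and 906 CPM in DMSO cells. GAPDH, often used as a reference gene, had 2082 and 2421 CPM in MI-503 cells, against 3978 and 3883 CPM in DMSO cells, a fall of 0.80 (SE 0.0641, edgeR adjusted p = 4.38e-05). GAPDH and PGK1 have processed copies in the genome, and reads shared with such copies make their values uncertain.

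PGK1, which makes the first ATP of the pathway, had 394 and 498 CPM in MI-503 cells, against 1198 and 1121 CPM in DMSO cells. Its fall of 1.37 (SE 0.0871, edgeR adjusted p = 1.63e-05) left no overlap between the groups. PGAM1 fell by 0.80, ENO1 by 0.95, ENO2 by 0.75 and PKM, the pyruvate kinase of growing cells, by 0.68. LDHA, which turns pyruvate into lactate, had 669 and 845 CPM in MI-503 cells, against 1798 and 1747 CPM in DMSO cells, a fall of 1.22 (SE 0.0853, edgeR adjusted p = 2.65e-05). LDHB, the subunit that favors the reverse reaction, had 786 and 799 CPM in MI-503 cells, against 782 and 824 CPM in DMSO cells, which overlap (log2 change -0.02, SE 0.0414). In GENCODE v44 on GRCh38, LDHA spans chromosome 11 from 18394560 to 18408425 and PGK1 spans chromosome X from 77910739 to 78129295.

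**Figure D1:**
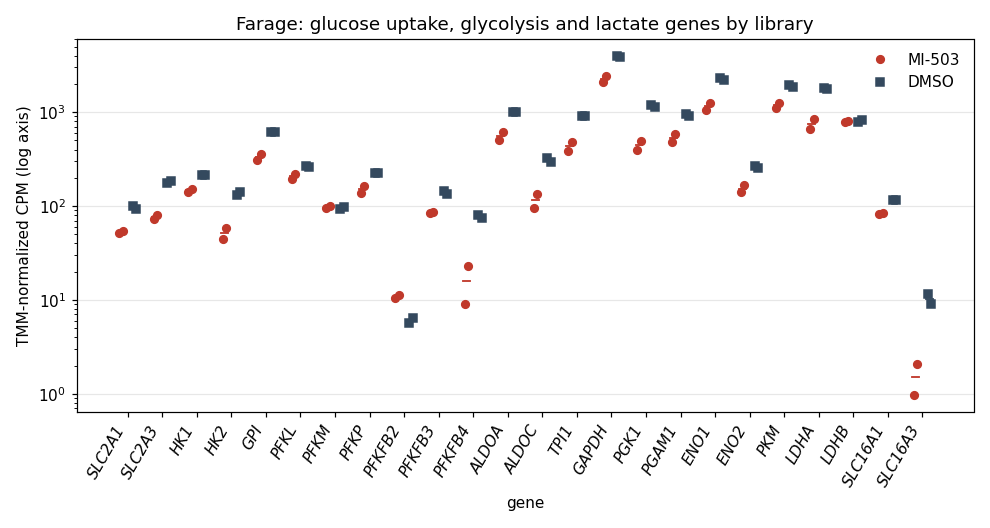
Levels of 24 genes of glycolysis and of glucose and lactate transport in Farage cells, in TMM-scaled CPM on a log axis, with MI-503 libraries left of DMSO libraries and bars at the group means. LDHA sits at 669 and 845 CPM with MI-503, against 1798 and 1747 CPM with DMSO, while the LDHB points overlap.

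Of 9 glucose and lactate transporters tested, 5 fell and none rose, and 3 fell by more than 1.5-fold. Of all genes tested 14.7% fell and 12.3% rose, and 1.48% fell by more than 1.5-fold. SLC2A3, a high-affinity glucose transporter, had 72.5 and 79.9 CPM in MI-503 cells, against 176 and 184 CPM in DMSO cells, a fall of 1.23 (SE 0.0534, edgeR adjusted p = 5.39e-06). It shares sequence with its close copy SLC2A14, so the split of reads between them is uncertain. SLC2A1, the general glucose transporter, had 51.7 and 54.3 CPM in MI-503 cells, against 99.4 and 92.2 CPM in DMSO cells. SLC16A3, the lactate exporter MCT4, was read 16 and 110 times in MI-503 cells, against 165 and 143 times in DMSO cells. On the CPM scale SLC16A3 stood at 0.97 and 2.09 with MI-503, against 11.5 and 9.16 with DMSO, a fall of 2.61 (SE 0.279, edgeR adjusted p = 0.000223). SLC16A1, the monocarboxylate transporter MCT1, fell by 0.48.

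Among hypoxia-responsive genes outside glycolysis the fall was as broad. Of 51 genes listed, 50 were in the table, 41 were tested, 36 fell and none rose, with a median log2 change of -0.81. Of all genes tested 14.7% fell and 12.3% rose. Every one of the 36 had both MI-503 libraries below both DMSO libraries, and 25 fell by more than 1.5-fold, 22 of them also when either MI-503 library was left out. Over all genes tested, 1864 of the 1866 that fell had both MI-503 libraries below both DMSO libraries, so this separation is not particular to the list. The 9 members with too few counts to test included CA9, the carbonic anhydrase widely used as a hypoxia marker, with 0 and 0 reads in MI-503 cells, against 3 and 6 reads in DMSO cells.

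PPFIA4, a liprin family member, had 2.06 and 4.79 CPM in MI-503 cells, against 29.8 and 24.3 CPM in DMSO cells, or 34 and 252 reads against 429 and 379. HILPDA, a lipid droplet protein, had 9.16 and 13.4 CPM in MI-503 cells, against 54.5 and 52.7 CPM in DMSO cells, a fall of 2.16 (SE 0.12, edgeR adjusted p = 1e-05). Neither gene had overlapping groups. ADM, the vasodilator peptide adrenomedullin, was read 1 and 19 times in MI-503 cells, against 48 and 46 times in DMSO cells, so its size is poorly fixed. ANKRD37 fell by 1.91 and AK4, a mitochondrial adenylate kinase, by 1.89.

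The mitophagy receptors BNIP3 and BNIP3L mark mitochondria for removal. BNIP3 had 36.8 and 57.7 CPM in MI-503 cells, against 173 and 162 CPM in DMSO cells, and BNIP3L fell by 1.15 with groups equally apart. VEGFA, which drives growth of blood vessels, had 22.1 and 28.7 CPM in MI-503 cells, against 62.1 and 53.3 CPM in DMSO cells, a fall of 1.14 (SE 0.106, edgeR adjusted p = 9.47e-05). PDK1, which keeps pyruvate out of mitochondria, fell by 0.98, and P4HA1, a collagen prolyl hydroxylase subunit, by 1.39. GBE1, the glycogen branching enzyme, fell by 1.18, and INSIG2, a brake on sterol synthesis, by 1.12. FUT11 fell by 1.72, ZNF395 by 1.51, FAM162A by 1.17 and the disulfide oxidase ERO1A by 0.77.

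The feedback genes fell as well, and the factor's own genes showed little change. EGLN1 had 40.9 and 45.7 CPM in MI-503 cells, against 85.8 and 87.7 CPM in DMSO cells, a fall of 0.99 (SE 0.0601, edgeR adjusted p = 1.27e-05). BHLHE40, a transcriptional repressor, had 19.3 and 24.4 CPM in MI-503 cells, against 57.7 and 58.3 CPM in DMSO cells. HIF1A had 256 and 256 CPM in MI-503 cells, against 262 and 269 CPM in DMSO cells, a log2 change of -0.05 (SE 0.038, edgeR adjusted p = 0.372). ARNT had 62.0 and 59.3 CPM with MI-503, against 58.5 and 57.6 CPM with DMSO, and VHL had 148 and 148 CPM with MI-503, against 133 and 145 CPM with DMSO. Of 10 factors and regulators tested, 3 fell, namely EGLN1 and the coactivators EP300 by 0.37 and CREBBP by 0.25. Of all genes tested 14.7% fell. HIF1A is controlled mainly as a protein, which these libraries do not measure.

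**Figure D2:**
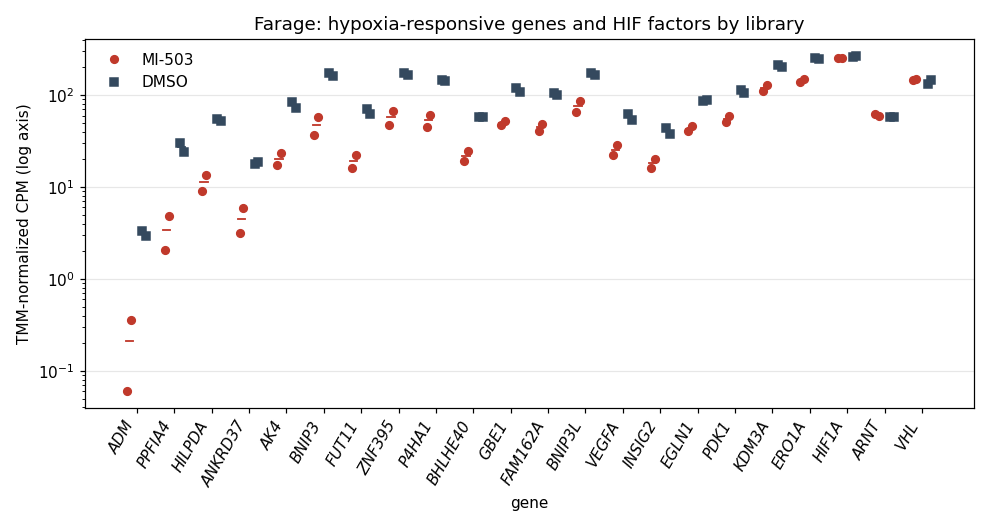
Levels of 22 genes of the hypoxia response in Farage cells, in TMM-scaled CPM on a log axis, with MI-503 libraries left of DMSO libraries and bars at the group means. HILPDA sits at 9.16 and 13.4 CPM with MI-503, against 54.5 and 52.7 CPM with DMSO, while HIF1A, ARNT and VHL lie close together.

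Both MI-503 libraries carried the fall, to unequal degrees. The median log2 difference from the DMSO mean over the hypoxia list was -0.91 in MI-503 replicate 1 and -0.72 in replicate 2. Over the glycolysis list it was -0.92 and -0.69. Replicate 1 lay below replicate 2 for 33 of the 36 hypoxia genes that fell and for all 17 glycolysis enzymes, against 62.1% of all genes that fell. Without replicate 1, 36 hypoxia genes and 17 glycolysis enzymes still fell, where 14.2% of genes fell and 13.5% rose. Without replicate 2, the counts were 35 and 17. RORA and CSRP2 are the exceptions, at -0.79 and -0.38 with adjusted p of 0.18 and 0.24 (edgeR's quasi-likelihood test) without replicate 2.

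MI-503 replicate 1 also held transcripts that the other Farage libraries nearly lacked. At 1 CPM or more and over 8-fold above each other library, 149 genes were found in it alone, with a summed 745 CPM in MI-503 replicate 1 and 17.2 CPM in replicate 2, against 7.64 and 9.16 CPM in DMSO cells. They took 0.0763% of its counts. They included the epithelial keratins KRT14 at 20.0 CPM, KRT15 at 19.1 CPM and KRT19 at 17.0 CPM. Also among them were the hemoglobin gene HBB at 25.3 CPM and the glutathione transferases GSTM5 at 43.1 CPM and GSTM1 at 33.5 CPM. Many others have pseudogene or clone names, such as KRT8P24 at 7.16 CPM and KRT18P43 at 2.61 CPM, while KRT18 itself had no read in MI-503 replicate 1. The 15 simple epithelium markers summed to 32.1 and 7.30 CPM in MI-503 cells, against 3.75 and 3.91 CPM in DMSO cells. MI-503 replicate 2 thus also held some epithelial transcripts. KRT6A had 6.19 and 1.77 CPM in MI-503 cells and no read in DMSO cells, and S100A2 had 175 reads in replicate 2 and none in the other Farage libraries. The 47 stratified epithelium markers in the table summed to 367 and 281 CPM in MI-503 cells, against 229 and 233 CPM in DMSO cells. Of these markers 31 were at 0 in both DMSO libraries. Most of each sum came from JUP and TP63, which DMSO cells also held. JUP had 183 and 192 CPM with MI-503, against 173 and 177 CPM with DMSO. TP63 had 66.0 and 61.2 CPM with MI-503, against 41.8 and 40.7 CPM with DMSO. The part of these transcripts in other results was not tested. The 16 erythroid markers summed to 32.6 and 1.01 CPM in MI-503 cells, against 1.11 and 1.35 CPM in DMSO cells. Nearly all of the sum in MI-503 replicate 1 came from HBB at 25.3 CPM and HBG2 at 6.25 CPM. In that library 9 of the 16 had no read. The 10 B cell markers, all present, summed to 4209 and 4459 CPM in MI-503 cells, against 4375 and 4357 CPM in DMSO cells. In bulk libraries fewer cells of a type and less RNA per cell cannot be told apart.

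Several of the largest rises sat mostly in that library. S100A6, a calcium-binding protein of epithelia and fibroblasts, had 28.6 and 0.969 CPM in MI-503 cells and no read in DMSO cells, where 0 reads allow up to 0.208 and 0.192 CPM. APP had 10.4 and 1.52 CPM in MI-503 cells, against 0.0695 and 0.32 CPM in DMSO cells. The basal keratin KRT5 had 16.7 and 3.16 CPM in MI-503 cells, against 0.625 and 0.512 CPM in DMSO cells, and KRT17 had 17.2 and 1.82 CPM with MI-503, against 0.486 and 1.02 CPM with DMSO. Replicate 1 was thus well above replicate 2 for all 4. Without replicate 1 the log2 changes were smaller for APP at 2.90, KRT5 at 2.47 and KRT17 at 1.25. S100A6 was also tested without it, but with no read in DMSO cells no size is given. All 4 lost their call when either DMSO library was left out. BEST1, AC010970.1, PPIAP22 and MTRNR2L10 were among the 15 largest rises in the same way, with replicate 1 at 12.1, 71.5, 27.5 and 11.5 CPM and replicate 2 at 0.703, 2.91, 1.35 and 2.03 CPM. All 4 lost their call when either DMSO library was left out, and BEST1, AC010970.1 and PPIAP22 also without replicate 1.

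The genes that rose were read less than those that fell. With a fold above 1.5, 261 genes rose, or 2.06% of those tested, with a median level of 4.35 CPM in the higher group, while the 187 that fell had a median of 18.5 CPM. The groups did not overlap for 260 of the 261, but 128 were called both without MI-503 replicate 1 and without replicate 2, and 126 of the 187 falls were. The count of rises was 604 without MI-503 replicate 2, 125 without DMSO replicate 1 and 114 without DMSO replicate 2, and the count of falls was 283 without MI-503 replicate 2.

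**Figure D3:**
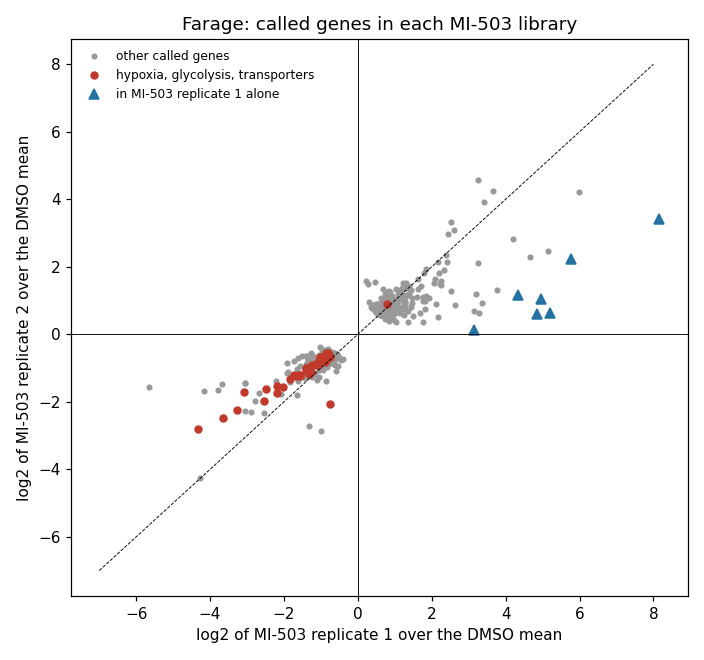
Log2 difference from the DMSO mean, with 0.1 CPM added, in MI-503 replicate 1 against MI-503 replicate 2 for each gene called in Farage cells. Red points are glycolysis, transporter and hypoxia genes, blue triangles are genes over 8-fold in replicate 1 alone and the dashed line marks equality. The red points fall in both libraries except for PFKFB2, which rises in both. The triangles rise in replicate 1 far more than in replicate 2.

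Other genes rose in both MI-503 libraries alike. ABCA1, the cholesterol exporter, had 16.2 and 16.4 CPM in MI-503 cells, against 7.37 and 5.19 CPM in DMSO cells, a log2 change of 1.39 (SE 0.144, edgeR adjusted p = 0.000178). ITGA6, an integrin subunit, had 18.6 and 16.7 CPM in MI-503 cells, against 7.57 and 7.11 CPM in DMSO cells. FCMR, the receptor for IgM, rose by 1.07, PGGHG by 1.05 and GPM6A by 1.01. The groups of these 5 genes did not overlap, which also held for 260 of the 261 genes that rose by over 1.5-fold. AL591806.4 and AC004922.1, listed without a common gene name, rose by 1.17 and 1.02 at low levels, and AL591806.4 stood at 0.50 without its call when DMSO replicate 1 was left out.

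Among nuclear receptors and cholesterol efflux genes, 3 of 18 rose and 5 fell, where 12.3% of all genes tested rose and 14.7% fell. RXRA, the shared partner of many nuclear receptors, had 2.00 and 3.04 CPM in MI-503 cells, against 14.8 and 16.2 CPM in DMSO cells, a fall of 2.54 (SE 0.183, edgeR adjusted p = 2.97e-05). The retinoic acid receptor RARA fell by 0.63 and the orphan receptor NR4A3 by 0.66. Besides ABCA1, ABCG1 rose by 1.38 and the fatty acid receptor PPARA by 0.54, and both lost their call without a DMSO library. The groups were apart for all 5, as for 1864 of 1866 genes that fell and 1552 of 1555 that rose. Large falls outside these lists were the semaphorin SEMA6A at -2.29, the orphan receptor GPR146 at -2.05, SH3D21 at -1.57 and the estrogen-responsive receptor GPER1 at -1.41.

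The genes of the targeted complex moved little. MEN1, which encodes menin, had 52.1 and 57.0 CPM in MI-503 cells, against 52.9 and 55.3 CPM in DMSO cells, a log2 change of 0.02 (SE 0.0599). MI-503 acts on the protein, so this level does not check the treatment. KMT2A had 97.6 and 95.8 CPM in MI-503 cells, against 115 and 115 CPM in DMSO cells, a fall of 0.25 (SE 0.0439, edgeR adjusted p = 0.00369). The list of menin-MLL and partner subunits is wider than the complex that holds menin. Of its 21 genes, 8 fell and 2 rose, including falls of 0.46 for KMT2C, 0.39 for KMT2E and 0.30 for HCFC1. The 2 that rose were PSIP1, the LEDGF tether of menin, at 0.28 and AFF1 at 0.83. AFF1 had 4.97 and 3.90 CPM in MI-503 cells, against 2.08 and 2.82 CPM in DMSO cells, and lost its call when either DMSO library was left out. Of 15 HOX, MEIS and PBX genes, which MLL1 is known to drive in leukemia, 2 fell and none rose, a share near that of all genes tested, of which 14.7% fell.

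Among PRC2 subunits, 5 of 12 fell and none rose, with EZH2 at 110 and 109 CPM in MI-503 cells, against 137 and 132 CPM in DMSO cells, and the accessory subunit PHF19 down by 0.41. Of 23 histone lysine demethylases, 10 fell and none rose, where 14.7% of all genes tested fell and 12.3% rose. KDM3A, itself a hypoxia-responsive gene, had 110 and 130 CPM in MI-503 cells, against 211 and 203 CPM in DMSO cells. KDM7A had 32.4 and 35.7 CPM in MI-503 cells, against 57.2 and 57.5 CPM in DMSO cells, and KDM6B, which removes H3K27 methylation, fell by 0.46.

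Outside these groups most changes were small. Over all genes tested 14.7% fell and 12.3% rose, and the share of ATF4 targets that rose, given below, was near that. Of 14 heat shock genes, 12 fell and 1 rose, with a median of -0.27. HSPA1B had 38.7 and 38.6 CPM in MI-503 cells, against 74.8 and 86.4 CPM in DMSO cells, and HSPA8 fell by 0.48, while the small heat shock protein HSPB1 rose by 0.42. HSPA1A and HSPA1B are nearly identical, so their split is uncertain. Of 27 genes of the unfolded protein response, 12 fell and 1 rose, but only 4 and 2 fell without DMSO replicate 1 and 2, and 13 of 42 ATF4 targets fell while 5 rose.

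The medians of the growth and B cell lists lay within a fraction of a log2 unit of 0. Single members moved further, from -0.63 to 1.57 among B cell transcription factors and from -0.54 to 1.29 among MHC class II genes. The counts of these lists stand beside 14.7% of all genes tested that fell and 12.3% that rose. Of 52 E2F-driven replication genes, 24 fell and 3 rose, none by 1.5-fold. POLA1 fell by 0.38, FEN1 by 0.31 and TK1 by 0.32, while E2F1 had 75.3 and 76.1 CPM in MI-503 cells, against 65.5 and 67.3 CPM in DMSO cells. Of 47 MYC network and ribosome biogenesis genes, 23 fell and 1 rose. Of 40 mitosis genes, 14 rose and 2 fell, and of 27 p53 targets, 12 rose and 1 fell, among them BTG2 at 0.46 and BBC3 at 0.68. Without DMSO replicate 1 or 2 the E2F falls were 11 and 8 and the mitosis rises 1 and 2. The MYC falls were 9 and the p53 rises 3 without DMSO replicate 2.

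Of 15 MHC class II genes, 9 rose and 1 fell, but 2 and 4 rose without DMSO replicate 1 and 2. HLA-DMB, which helps load peptide, had 183 and 183 CPM in MI-503 cells, against 115 and 111 CPM in DMSO cells, and the class II genes that rose also included HLA-DMA at 0.43. Of 44 NF-kB genes, 17 fell and 3 rose, with ICAM1 down by 0.53 and the inhibitor NFKBIA by 0.39, and 11 fell without DMSO replicate 1. The germinal center gene GCSAM rose by 0.70 and the transcription inhibitor ID3 by 0.94, and IRF4 fell by 0.39. Among immediate early genes, 11 of 33 fell and 8 rose, with FOSB down by 1.37, FOSL2 down by 0.85 and EGR3 up by 0.75. Of 31 lysosome genes 12 rose and 2 fell, and of 21 oxidative stress genes 7 rose and none fell. For each of these lists the share over all genes tested was 12.3% that rose and 14.7% that fell. The lysosome rises were 6 without DMSO replicate 2, and the oxidative stress rises 4 and 3 without DMSO replicate 1 and 2.

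**Figure D4:**
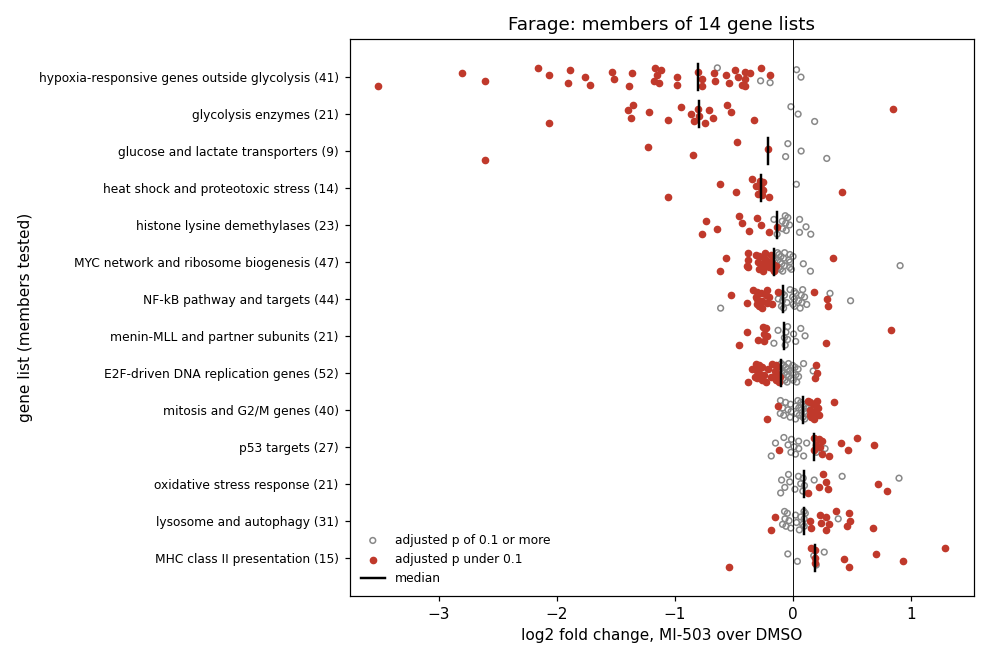
Log2 fold change, MI-503 over DMSO, of each tested member of 14 gene lists in Farage cells. Filled points have an adjusted p under 0.1 and bars mark list medians. The hypoxia and glycolysis lists have medians of -0.81 and -0.80, and the heat shock list has -0.27.

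The hypoxia fall in Farage cells was compared with the other 3 lines by the difference between the Farage change and the mean change of KARPAS422, DB and SUDHL5, in 1 fit of 16 libraries. The study calls KARPAS422 and DB EZH2 mutant and Farage wildtype, so effects of line and of EZH2 genotype cannot be told apart. Of 47 hypoxia genes tested, 32 had a Farage change below the others and none above, with a median difference of -0.85, against 0.06 over 16274 genes tested. In that fit 10.6% of genes were below and 19.9% above. The hypoxia list had a median log2 change of 0.03 in KARPAS422, 0.22 in DB and -0.13 in SUDHL5. Medians over the genes tested in Farage were -0.002, -0.016 and -0.007 in those lines. In KARPAS422 11 of 38 members rose and 4 fell, in DB 18 of 37 rose and 12 fell, and in SUDHL5 6 of 37 rose and 18 fell. The shares of all genes that rose or fell within each of those lines are not given here. Counts within those lines, here and below, thus lack a background. SLC2A3 fell by 1.23 in Farage cells, while its log2 changes were 1.13 in KARPAS422, 1.68 in DB and -0.60 in SUDHL5, a difference of -1.93 (SE 0.142, edgeR adjusted p = 4.82e-08). BHLHE40 differed by -2.58 and KDM3A by -1.03. The keratins KRT5 and KRT17 changed by 9.38 and 8.37 in DB, and without DB 30 hypoxia genes were still below.

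Glycolysis differed less. Of 22 enzymes, 11 were below the other lines and 2 above, where 10.6% of all genes tested were below and 19.9% above. The list medians were -0.07 in KARPAS422, -0.41 in DB and -0.54 in SUDHL5. LDHA fell by 1.22 in Farage cells and had changes of -0.51, -1.52 and -1.23 in KARPAS422, DB and SUDHL5, a difference of -0.09 (edgeR adjusted p = 0.603), so no difference was detected. ENO1 likewise differed by -0.05 and PKM by 0.05. ALDOC was among those that did differ, at 0.61, 0.92 and -1.08 in the other lines.

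Replication genes showed the reverse. In the fit of all lines 19.9% of genes tested had a Farage change above the others and 10.6% below. Of 52 replication genes, 51 were above and none below, with a median difference of 0.76. Their medians were -0.52 in KARPAS422, -0.99 in DB and -0.84 in SUDHL5, against -0.10 in Farage. E2F1 changed by -0.57, -1.14 and -0.74 there. ATF4 targets were above the other lines for 29 of 45, and 19 were when KARPAS422, where 37 of 40 fell, was left out. Of 23 demethylases 9 were below, and 16 were without KARPAS422. Over all genes tested the count below likewise went from 1720 to 3244 without KARPAS422, so that increase is not particular to demethylases.

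**Figure D5:**
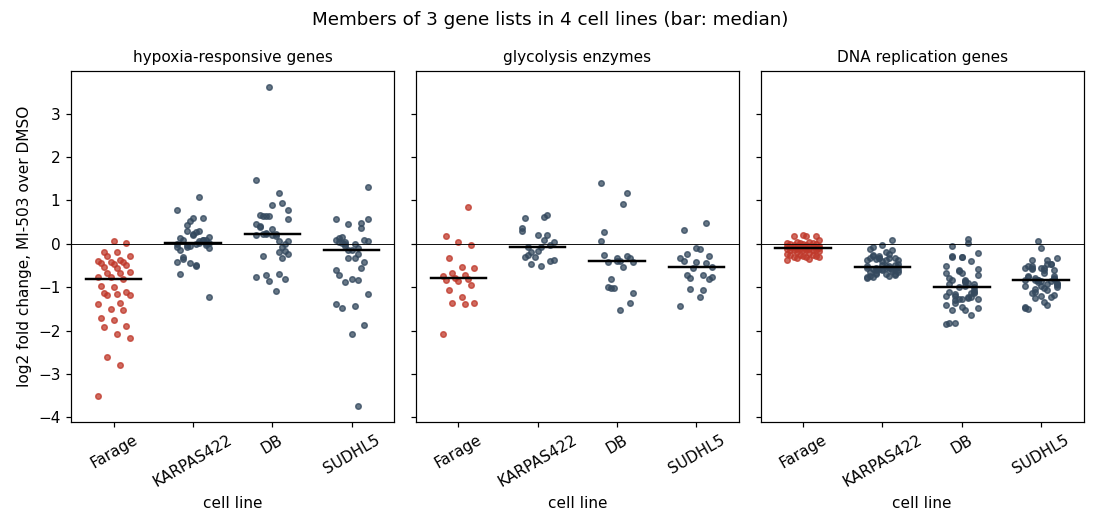
Log2 fold change, MI-503 over DMSO, of the members of 3 gene lists in 4 lymphoma lines, with Farage in red at the left and bars at the medians. The hypoxia list has a median of -0.81 in Farage and 0.03, 0.22 and -0.13 in KARPAS422, DB and SUDHL5.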

How the data were processed

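RNA-seq was read as whole-number counts per gene, as deposited by the authors, for 4 Farage libraries (16098639 and 52491493 counts with MI-503, 14556778 and 15921296 with DMSO). Per the submitters' processing notes, CASAVA 1.7, HISAT2 2.1.0, Picard 2.23.1 and featureCounts 1.6.1 were used on hg38. The annotation, strand setting and treatment of multiply mapped reads were not given in the sources used here. Counting error shrinks with depth, so MI-503 replicate 2 is the most precise library.

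Genes were kept by filterByExpr, scaled by TMM and tested with edgeR 4.0.16 (R 4.3.3, limma 3.58.1), by the quasi-likelihood test with Benjamini-Hochberg adjustment. Calls needed a fold above 1.5 besides an adjusted p under 0.1, which alone was required of list members. A floor of 3 counts stands for 0. Alternatives were DESeq2 1.42.0, other scalings, filters and left-out libraries. Named genes were the 15 largest changes per direction of at least 5 CPM moving over 1.5-fold in both MI-503 libraries, the menin-MLL list, the glycolysis, transporter and hypoxia lists, up to 4 members with the smallest p of each other list, and genes of MI-503 replicate 1 alone. A few further genes were chosen after their values were seen. The members and 36 gene lists were chosen with earlier results of these data known. Gene positions come from GENCODE v44 and promoters from RefSeq, with 12104 of 12659 tested symbols annotated.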

Additional observations from a re-analysis of the deposited data

Results flagged for a closer look

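In the fit of 16 libraries the MI-503 change in Farage cells was above the mean of the other 3 lines for 3240 genes and below it for 1720. These were 19.9% and 10.6% of the 16274 genes tested. Of the 107 genes named, 73 differed, by a test of the difference itself. Many of the 107 were named for a large or clear change in Farage cells, so a higher share among them is partly built in. The values below are log2 differences, Farage minus the mean of KARPAS422, DB and SUDHL5, and some genes were low in 1 or more of those lines.

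Among glycolysis enzymes the differences were -0.29 for HK1, -0.62 for HK2, -0.52 for GPI, -0.47 for ALDOA, -1.51 for ALDOC, -0.36 for TPI1, -0.59 for GAPDH, -0.57 for PGK1, -1.19 for ENO2, -0.28 for PFKFB3 and -1.70 for PFKFB4. The transporters SLC2A3 and SLC16A3 differed by -1.93 and -2.94. Among hypoxia genes PPFIA4 differed by -2.54, HILPDA by -1.52, ANKRD37 by -1.01, AK4 by -1.30, BNIP3L by -1.20, FUT11 by -1.54, ZNF395 by -1.37, VEGFA by -0.76, EGLN1 by -0.59 and P4HA1 by -1.15. KDM3A differed by -1.03, BHLHE40 by -2.58, PDK1 by -0.41, GBE1 by -0.46, INSIG2 by -1.27, FAM162A by -0.69, ERO1A by -0.68, CSRP2 by -0.90, ADM by -3.07, EP300 by -0.29 and CREBBP by -0.24.

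RXRA differed by -3.89, RARA by -0.99, NR4A3 by -1.63, SEMA6A by -2.82 and SH3D21 by -1.48. Of chromatin genes KMT2C differed by -0.55, KMT2E by -0.41, PSIP1 by 0.56, EZH2 by 0.27, KDM7A by -1.21 and KDM6B by -0.81. HSPA1A differed by -2.80 and HSPA1B by -1.09, and HSPA1A changed by 6.90 in DB. The replication genes POLA1, FEN1, TK1 and E2F1 differed by 0.88, 0.77, 0.80 and 1.05. Of B cell and signaling genes ID3 differed by 1.15, IRF4 by -2.08, GCSAM by 0.72, HLA-DMB by 0.29, HLA-DMA by 0.35, HLA-DQB1 by -1.32, EGR3 by 1.24, FOSB by -1.32, FOSL2 by -1.48, ICAM1 by -0.99, NFKBIA by -0.21 and CCNG1 by -0.58. APP, which was high in MI-503 replicate 1, differed by 4.22. LDHB, PFKM, ARNT and VHL differed by 0.24, 0.18, -0.21 and 0.23. BEST1 differed by 4.23, AC010970.1 by 3.56, PPIAP22 by 4.55, MTRNR2L10 by 2.38 and AC004922.1 by 1.69, of which AC004922.1 alone was not highest in MI-503 replicate 1.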

How the results depend on the processing

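Of 1374 values of the 107 named genes under the alternatives, 1315 kept their direction and side of the threshold. Those that changed sign were near 0 throughout and never called. LDHB stood at 0.024 with total counts alone, at 0.017 with all 16 libraries in 1 fit and at -0.053 to 0.020 with a library left out. MEN1 stood at -0.0075 with thinned counts. With a library left out PFKM ranged over -0.015 to 0.083 and MEN1 over -0.062 to 0.077. The rises numbered 676 with no filter, 109 with genes of at least 5 CPM, 142 by DESeq2 and 423 with all 16 libraries in 1 fit, and 114 to 604 with a library left out; the cause was not tested. The falls were 143 to 283 with a library left out. With the replicate number as a block, 297 genes rose and 203 fell. Deviations of same-numbered libraries from their group means had a correlation of -0.0492, so no shared effect of replicate number was seen. The labels do not state whether same-numbered libraries were set up together. With total counts alone, 15 E2F genes fell, and 22 mitosis and 11 oxidative stress genes rose. Leaving out 1 Farage library gave ranges of 8 to 22 for E2F falls, 2 to 9 for MHC class II rises, 1 to 18 for mitosis rises, 3 to 14 for p53 rises, 11 to 19 for NF-kB falls, 9 to 29 for MYC falls, 3 to 8 for oxidative stress rises, 6 to 13 for lysosome rises and 2 to 13 for unfolded protein response falls. Of the differences from the other lines, 2036 to 3803 were above and 967 to 1944 below with a Farage library left out, and 3244 were below without KARPAS422. Without KARPAS422, 19 ATF4 targets were above and 16 demethylases below. Counts for hypoxia (31 to 36) and glycolysis (16 to 17) kept within 1.5 times. Leaving a library out gives an arm of 1, assumed to vary like the other arm. The list counts without a DMSO library were added after seeing the data. With 2 libraries a group, small changes and genes of few counts are poorly resolved.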
